A study of Mus musculus with 6 samples.

Results

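The 9 genes described here encode 3 inhibitory neuropeptide systems of the spinal cord: neuropeptide Y (Npy) with its receptors Npy1r, Npy2r and Npy5r, somatostatin (Sst) with Sstr1 and Sstr2, and galanin (Gal) with Galr1. The set was chosen by family, and selected on RNA levels by neuron type and genotype already seen in these data. The genes were then taken by symbol from the 32285 genes of the deposited count tables, where all 9 were found, and all 9 passed the filter on low counts in each neuron type. The nuclei came from frozen lumbar spinal cord of C57BL/6 mice aged 110 days with the SOD1G93A transgene. It encodes a mutant form of human superoxide dismutase that kills motor neurons, and such mice serve as a model for amyotrophic lateral sclerosis. In 1 group the mice lacked PHD1 (SOD1G93A/PHD1-/-, 3 libraries), an oxygen-sensing prolyl hydroxylase made by the gene Egln2. The mice they were set against had it (SOD1G93A/PHD1+/+, 3 libraries). The transgene is present in both groups, so its own effect was not measured here, and the labels give neither the sex of the mice nor the part of Egln2 that was removed. They describe 3 pairs of littermates without stating that the replicate number marks the pair.

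Neuropeptides are cut from larger precursors, stored in dense-core vesicles and released on strong firing. The receptors of neuropeptide Y, somatostatin and galanin listed above couple to inhibitory G proteins, which open inwardly rectifying potassium channels and lower cyclic AMP, so the peptides damp the cells and terminals they reach. In the mouse dorsal horn Npy marks a population of inhibitory interneurons, galanin occurs with dynorphin in another inhibitory population, and Sst is made mainly by excitatory interneurons. The Sstr2 protein is known from dorsal horn inhibitory neurons, Npy1r from excitatory neurons of the superficial layers, and Galr1 from both kinds.

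A droplet kit that reads the 3' end of transcripts was used for all libraries, with a barcode per molecule, the unique molecular identifier (UMI), so that copies of 1 molecule count once. The deposited tables held 6145 to 7423 barcodes and 14120298 to 33794389 UMIs per PHD1-/- library, and 5387 to 9174 barcodes and 18901508 to 32322447 UMIs per PHD1+/+ library. After filters, 40091 nuclei were used, of which 15545 fell in 40 neuron clusters: 8593 excitatory, 6804 inhibitory and 148 cholinergic nuclei. The summed level of 5 inhibitory markers was 701 to 848 CPM in PHD1-/- and 748 to 916 CPM in PHD1+/+ inhibitory neurons. In excitatory neurons it was 36.2 to 47.0 CPM in PHD1-/- and 42.9 to 72.4 CPM in PHD1+/+ libraries. These markers include the inhibitory transmitter genes that named the clusters, so the contrast follows from the naming and is no check of it. Replicate 1 of both groups stood apart, with another barcode list and a median of 1302.5 (PHD1-/-) and 1270 (PHD1+/+) UMIs per nucleus, against 2305 to 2877 elsewhere. These libraries also held both Xist RNA, with 13950 UMIs in PHD1-/- and 8049 UMIs in PHD1+/+, and RNA of the Y-linked gene Uty, with 647 UMIs in PHD1-/- and 1558 UMIs in PHD1+/+. The other 4 libraries had at most 12 Xist UMIs. The replicate 1 libraries shared 86 barcodes, and every other pair of libraries shared at most 14. In all neurons, the summed level of 7 oligodendrocyte markers ran between 217 and 673 CPM (UMIs scaled to a common total of the same cells) in PHD1-/- and between 293 and 900 CPM in PHD1+/+ libraries. That of 7 astrocyte markers ran between 77.6 and 95.6 CPM in PHD1-/- and between 96.5 and 118 CPM in PHD1+/+ libraries. The part of this glial RNA in the results below was not tested. Egln2 RNA in all neurons was 11.2, 7.84 and 9.08 CPM in PHD1-/- replicates 1, 2 and 3, against 22.8, 16.0 and 13.9 CPM in PHD1+/+ replicates 1, 2 and 3, with no overlap of the groups. Its reads may come from outside the removed part.

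Npy (ENSMUSG00000029819, chromosome 6, 49822710 to 49829507 on the plus strand, GRCm38) was the higher in inhibitory neurons in every library. Its level in inhibitory neurons was 73.2, 62.9 and 36.6 CPM in PHD1-/- replicates 1, 2 and 3, against 99.1, 102 and 57.7 CPM in PHD1+/+ replicates 1, 2 and 3. In excitatory neurons it was 19.4, 14.3 and 10.8 CPM in PHD1-/- and 34.6, 16.1 and 14.2 CPM in PHD1+/+ libraries, and in oligodendrocytes 34.7, 20.2 and 14.5 CPM in PHD1-/- and 61.7, 11.1 and 14.5 CPM in PHD1+/+ libraries. Oligodendrocytes are not known to make these peptides, and free RNA in droplets was not measured. Over all libraries, Npy was 16.3 CPM in excitatory neurons and 22.3 CPM in oligodendrocytes, but the neurons hold more UMIs, and per nucleus it was 0.0926 UMIs in excitatory neurons and 0.0368 in oligodendrocytes. In nuclei thinned at random to 1000 UMIs, an Npy UMI was found in 1.49% ± 0.83 of excitatory nuclei and 2.49% ± 1.76 of oligodendrocytes (SD, n = 6). The inhibitory level exceeded the excitatory level in 6 of 6 libraries, by 1.94 ± 0.38 on the log2 scale (SD, n = 6, pseudocount of 1 CPM). This contrast of types is a description without a test, as are the other levels by cell type, since the genes were chosen with such results known.

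**Figure D1:**
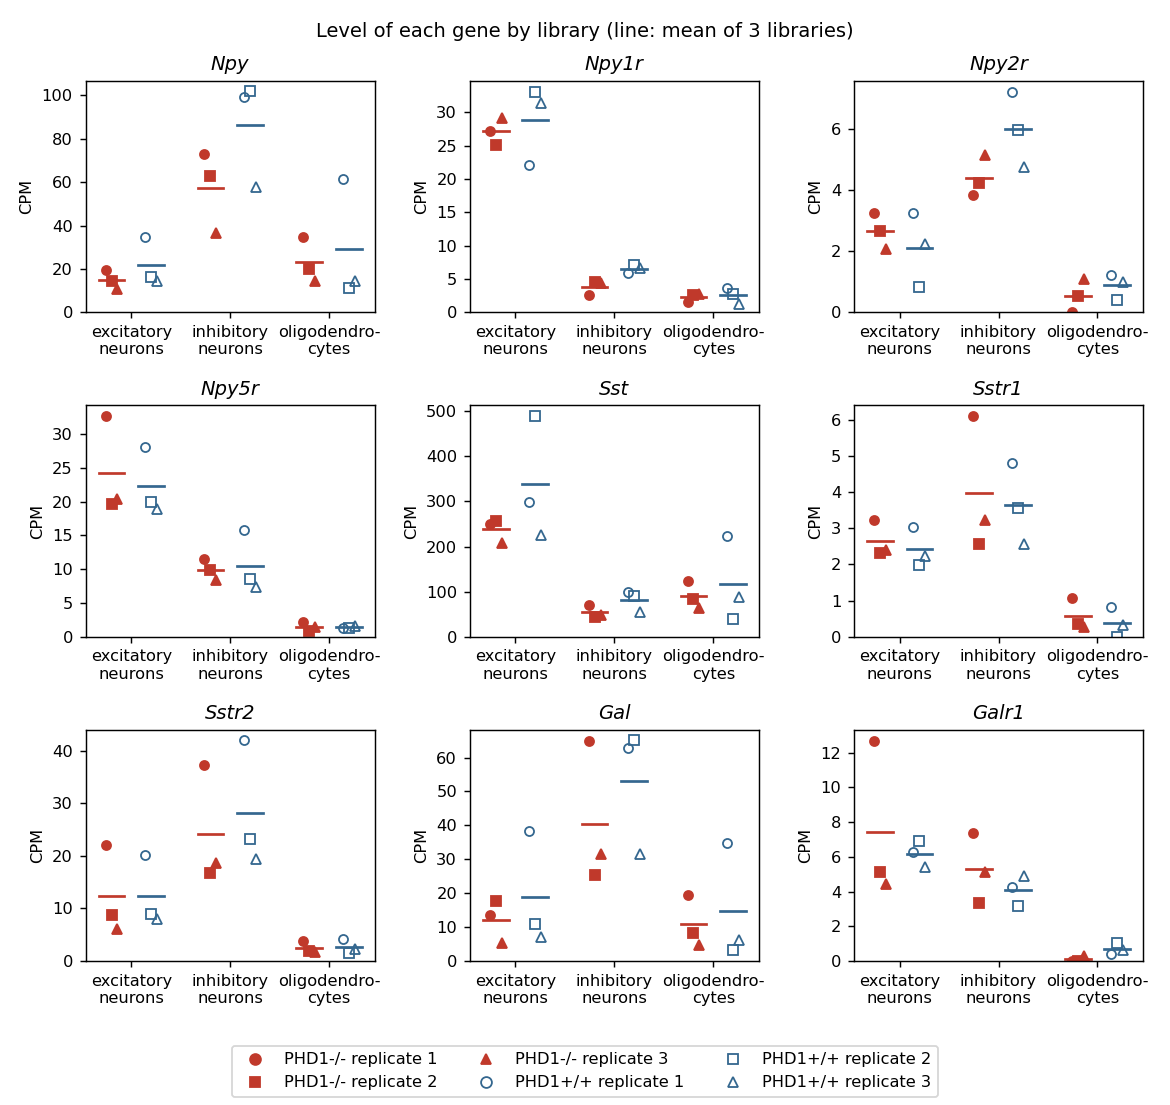
Level of each of the 9 genes in excitatory neurons, inhibitory neurons and oligodendrocytes, in CPM on linear axes that start at 0. Each symbol is 1 library (filled, PHD1-/-, open, PHD1+/+) and each line the mean of 3 libraries. Npy and Gal are high in inhibitory neurons, Sst, Npy1r and Npy5r in excitatory neurons, and the Sst level of inhibitory neurons lies in the range of oligodendrocytes.

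Most Npy RNA of neurons came from a few clusters. The clusters were built without the 9 genes and are named by their leading genes. An inhibitory cluster led by Qrfpr, Plch1 and Ndnf held 165 nuclei, 1.06% of neurons, and 27.2% of the Npy UMIs of neurons, and 88.5% of its nuclei had at least 1 Npy UMI. Its Npy level was 1101, 1565 and 698 CPM in PHD1-/- replicates 1, 2 and 3, against 1304, 2212 and 1036 CPM in PHD1+/+ replicates 1, 2 and 3. The next inhibitory clusters were led by Chrm3, Frzb and Ptprz1 (218 CPM over all libraries), Qrfprl, Cdh23 and Ecel1 (213 CPM), and Met, Eya2 and Adamts5 (163 CPM), and their ranges over libraries overlapped. Of 40 clusters, 9 had more than 2 times the Npy level of oligodendrocytes. The only excitatory one among the 9 was a small cluster of 56 nuclei led by Ctla2a and Piezo2, where Npy reached 626 CPM and 73.2% of nuclei had an Npy UMI. The same cluster had Sst at 755 CPM, with a UMI in 76.8% of its nuclei.

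Sst (ENSMUSG00000004366, chromosome 16, 23889573 to 23890958 on the minus strand, GRCm38) was higher in excitatory than in inhibitory neurons in every library. In excitatory neurons it was 250.7, 257 and 209 CPM in PHD1-/- replicates 1, 2 and 3, against 298, 490.3 and 225 CPM in PHD1+/+ replicates 1, 2 and 3. There PHD1+/+ replicate 2 stood above the other 5 libraries. In inhibitory neurons Sst was 69.3, 44.3 and 47.7 CPM in PHD1-/- and 98.0, 89.8 and 54.3 CPM in PHD1+/+ libraries. Oligodendrocytes had 123, 83.5 and 64.3 CPM in PHD1-/- and 222, 39.5 and 87.8 CPM in PHD1+/+ libraries, and over all libraries the level was 62.7 CPM in inhibitory neurons and 90.2 CPM in oligodendrocytes. Per nucleus, with depth not held equal, the order was the reverse, with 0.413 Sst UMIs in inhibitory neurons and 0.149 in oligodendrocytes. In nuclei thinned at random to 1000 UMIs it was not reversed. There an Sst UMI was found in 6.34% ± 2.31 of inhibitory nuclei and 8.76% ± 4.55 of oligodendrocytes (SD, n = 6). The cholinergic cluster, which holds the motor neurons and is led by Slc5a7, Uts2 and Prph, had Sst at 64.1, 79.8 and 173 CPM in PHD1-/- and 45.0, 197 and 324 CPM in PHD1+/+ libraries, from 18 to 32 nuclei a library. Those libraries spread too widely for an order between the cholinergic cluster and the oligodendrocytes, or between it and the excitatory neurons.

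Among excitatory clusters, Sst peaked in one led by Trh, Car8 and Sntb1 (362 nuclei, 87.0% with an Sst UMI). Trh encodes the precursor of thyrotropin-releasing hormone. Sst there was 1051, 1464 and 1105 CPM in PHD1-/- replicates 1, 2 and 3, against 1105, 3003 and 1034 CPM in PHD1+/+ replicates 1, 2 and 3. The clusters led by C1qtnf7, Bnc2 and Itih5 (1456 CPM over all libraries) and by Tac2, Nmu and Gmnc (1270.2 CPM) came next, and the 3 overlapped across libraries. Tac2 and Nmu encode neurokinin B and neuromedin U, peptides of dorsal horn excitatory neurons. In each of the 3 clusters PHD1+/+ replicate 2 had the highest Sst level. In all, 11 of 40 clusters had more than 2 times the Sst level of oligodendrocytes, and all 11 were excitatory. Above the oligodendrocyte level itself, over all libraries, lay 12 clusters, the cholinergic one among them, just short of that cut. Its libraries spread widely, as given above.

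The Sst promoter is a textbook target of cyclic AMP signalling through the element TGACGTCA, which is its own reverse complement. Among the 7 of the 9 genes with an entry in the RefSeq promoter table (GRCm38.p6), the element occurred within 250 bases before the start of Sst and of Sstr2 and in none of the other 5. Of all 32851 promoters of that length, 508 held it (1.55%), and of 27025 genes, 478 (1.77%). The 2 promoters are shown because they are the ones of this group with a match, in capitals, 40 bases before the start of Sst and 50 bases before that of Sstr2. The first lies at chr16:23890845-23891094 on the minus strand and the second at chr11:113619077-113619326 on the plus strand. RefSeq places the start of Sst inside the longer gene span given above.
Sst: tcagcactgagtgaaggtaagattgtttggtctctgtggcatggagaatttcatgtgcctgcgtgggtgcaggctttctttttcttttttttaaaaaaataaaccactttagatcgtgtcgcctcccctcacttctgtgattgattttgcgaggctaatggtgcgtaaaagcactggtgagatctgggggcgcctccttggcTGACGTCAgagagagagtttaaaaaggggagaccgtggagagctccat
Sstr2: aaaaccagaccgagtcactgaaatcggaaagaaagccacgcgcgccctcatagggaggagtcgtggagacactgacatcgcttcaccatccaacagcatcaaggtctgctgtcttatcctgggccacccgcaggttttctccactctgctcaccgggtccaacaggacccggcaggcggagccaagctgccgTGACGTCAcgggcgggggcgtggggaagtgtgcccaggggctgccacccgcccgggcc
A match of letters is not a measured binding site. In excitatory neurons thinned to 1000 UMIs, Sst and Sstr2 met in 25 nuclei, 0.987 times the number that their separate shares give.

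Gal (ENSMUSG00000024907, chromosome 19, 3409915 to 3414544 on the minus strand, GRCm38) was concentrated in 1 inhibitory cluster. That cluster, led by Pdyn, Pnoc and Chn2, held 517 nuclei, 3.33% of neurons, and 63.2% of the Gal UMIs of neurons. Pdyn and Pnoc encode the precursors of the opioid peptide dynorphin and of nociceptin. Gal was 799, 499 and 479 CPM in this cluster in PHD1-/- replicates 1, 2 and 3, against 654, 1059 and 523 CPM in PHD1+/+ replicates 1, 2 and 3, and the groups overlapped. The next cluster, the one led by Trh, had 63.1 CPM over all libraries. In the cluster led by Tac2, Gal was 3.18, 12.2 and 3.63 CPM in PHD1-/- and 166, 4.28 and 4.34 CPM in PHD1+/+ libraries, a level that rested on PHD1+/+ replicate 1 alone.

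Over inhibitory neurons as a whole, Gal was 64.8, 25.3 and 31.4 CPM in PHD1-/- and 62.8, 65.1 and 31.4 CPM in PHD1+/+ libraries. In excitatory neurons it was 13.5, 17.6 and 5.19 CPM in PHD1-/- and 38.3, 10.8 and 7.18 CPM in PHD1+/+ libraries, with 10.2 CPM in oligodendrocytes over all libraries. The inhibitory level was the higher in 6 of 6 libraries (1.71 ± 0.88 on the log2 scale, SD, n = 6).

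**Figure D2:**
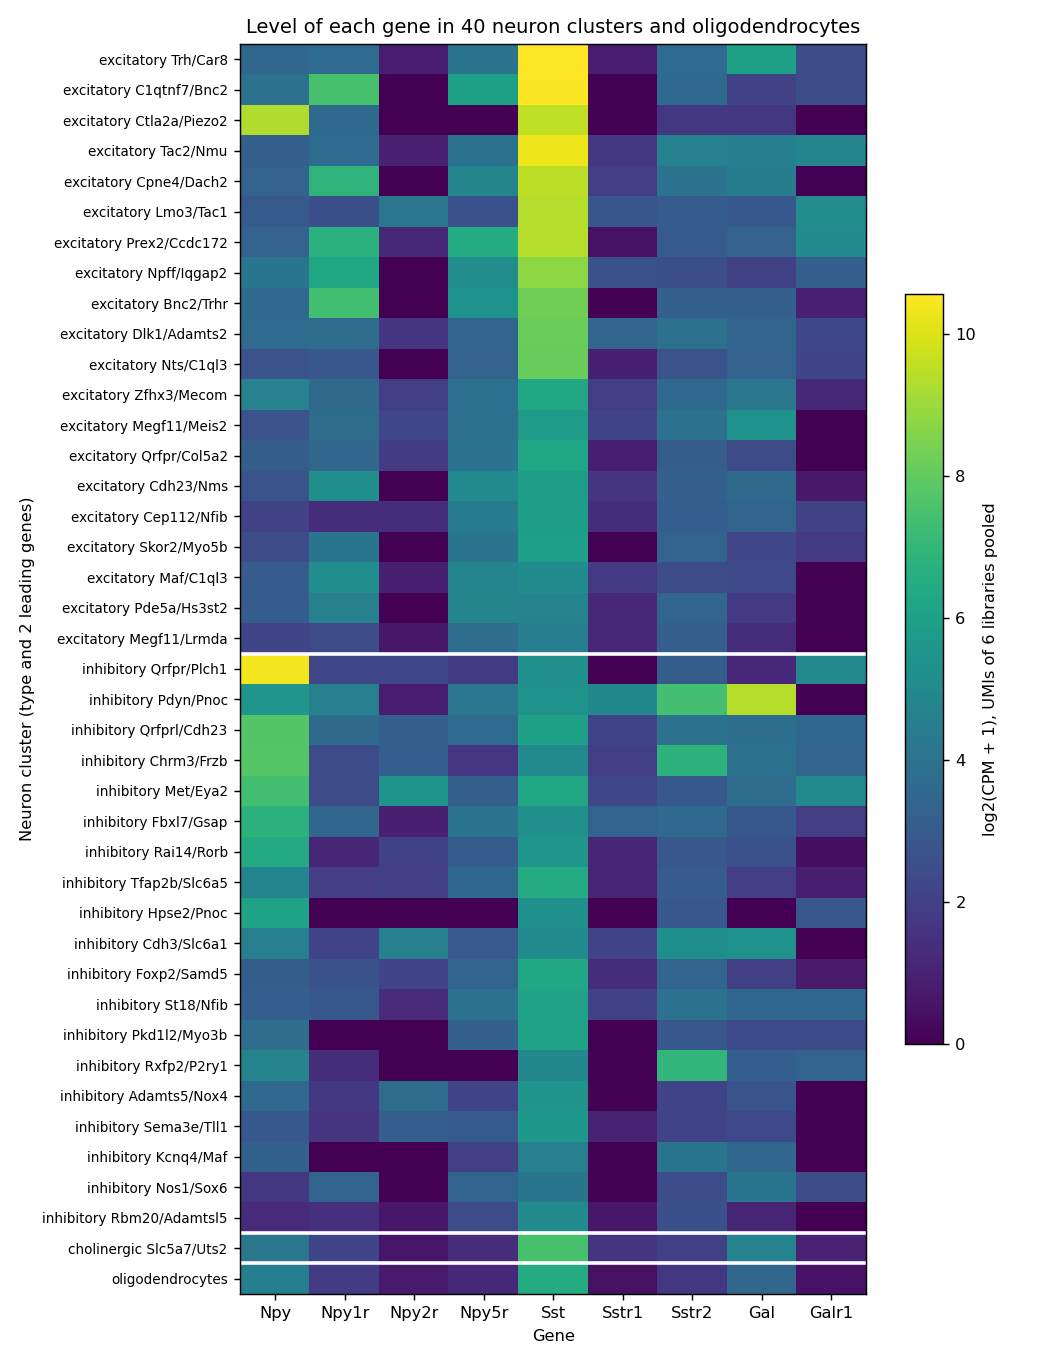
Level of the 9 genes in 40 neuron clusters and in oligodendrocytes, as log2(CPM + 1) of the UMIs of all 6 libraries together. Rows are clusters named by type and leading genes, ordered within a type by the summed peptide levels, and white lines part excitatory, inhibitory and cholinergic neurons from oligodendrocytes. Npy is brightest in the inhibitory cluster led by Qrfpr, Gal in the one led by Pdyn, and Sst fills 11 excitatory clusters.

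The receptors for neuropeptide Y differed in where they lay. Npy1r (ENSMUSG00000036437, plus strand, 66697192 to 66706792) and Npy5r (ENSMUSG00000044014, minus strand, 66679965 to 66688128) sit head to head on chromosome 8 of GRCm38, with 9064 bases between their starts and no annotated gene between them. Both were higher in excitatory than in inhibitory neurons in 6 of 6 libraries. Npy1r was 27.3, 25.1 and 29.2 CPM in excitatory neurons of PHD1-/- replicates 1, 2 and 3, against 22.1, 33.1 and 31.4 CPM in PHD1+/+ replicates 1, 2 and 3, and the inhibitory level lay 2.27 ± 0.43 lower on the log2 scale (SD, n = 6). Npy5r was 32.7, 19.6 and 20.4 CPM in excitatory neurons of PHD1-/- and 28.1, 20.0 and 18.9 CPM in those of PHD1+/+ libraries, with an inhibitory level 1.12 ± 0.23 lower on the log2 scale. Receptor RNA in oligodendrocytes was low, at 2.52 CPM for Npy1r and 1.31 CPM for Npy5r over all libraries.

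By cluster, Npy1r ran highest in the ones led by C1qtnf7 (180.5 CPM over all libraries, a UMI in 39.9% of nuclei) and by Bnc2, Trhr and Adcyap1 (162 CPM), followed by those led by Cpne4 (117 CPM) and Prex2 (106 CPM). Npy5r was highest in the cluster led by Prex2, Ccdc172 and Fer1l6 (92.3 CPM, a UMI in 23.4% of nuclei) and then in the one led by C1qtnf7 (63.9 CPM). The leading 4 of each gene overlapped across libraries. Outside neurons, mural cells had 33.3 CPM of Npy1r over all libraries, from 11 UMIs in 249 nuclei. Sst, at 212 CPM in these nuclei, also lay above its oligodendrocyte level. Npy1r is known in vascular smooth muscle, where neuropeptide Y constricts vessels.

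Npy2r (ENSMUSG00000028004, chromosome 3, 82538383 to 82548084 on the minus strand) had the opposite preference. Npy2r often serves as the receptor on terminals that release the peptide itself. It was 3.85, 4.24 and 5.14 CPM in inhibitory neurons of PHD1-/- replicates 1, 2 and 3, against 7.21, 5.99 and 4.77 CPM in PHD1+/+ replicates 1, 2 and 3. In excitatory neurons it was 3.24, 2.66 and 2.08 CPM in PHD1-/- and 3.24, 0.816 and 2.24 CPM in PHD1+/+ libraries. The inhibitory level was the higher in 6 of 6 libraries, by 0.91 ± 0.59 on the log2 scale (SD, n = 6). In PHD1-/- replicate 1 each type held 12 Npy2r UMIs, and the log2 difference was 0.195. The cluster led by Met, Eya2 and Adamts5, itself among the Npy clusters, held 23.9% of the Npy2r UMIs of neurons in 2.46% of neurons. Npy2r there was 27.9, 50.9 and 41.6 CPM in PHD1-/- and 67.9, 35.6 and 38.4 CPM in PHD1+/+ libraries. In 14 of 40 clusters no Npy2r UMI was seen. In the largest of these, led by Cdh23, Nms and Scn7a with 465 nuclei, that allows a share of up to 0.645% of nuclei with a UMI.

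The somatostatin receptors were both highest in the galanin cluster. Sstr2 (ENSMUSG00000047904, chromosome 11, 113619342 to 113626028 on the plus strand) overlaps Slc39a11 on the other strand, and no source used here says whether counting took the strand into account, so reads of the overlap may belong to either gene. Sstr2 was 37.2, 16.7 and 18.6 CPM in inhibitory neurons of PHD1-/- replicates 1, 2 and 3, against 41.9, 23.2 and 19.3 CPM in PHD1+/+ replicates 1, 2 and 3. In excitatory neurons it was 22.1, 8.78 and 6.12 CPM in PHD1-/- and 20.1, 8.89 and 8.0 CPM in PHD1+/+ libraries. Replicate 1 of each group had the highest Sstr2 level in both neuron types. In the cluster led by Pdyn it was 182, 145 and 135 CPM in PHD1-/- and 253, 196 and 138 CPM in PHD1+/+ libraries, and 51.1% of these nuclei had an Sstr2 UMI. Clusters led by Rxfp2 and P2ry1 (123 CPM over all libraries) and by Chrm3 (114 CPM) followed and overlapped with it.

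Sstr1 (ENSMUSG00000035431, chromosome 12, 58211772 to 58214444 on the plus strand) had 270 UMIs in all neurons, 27.0% of them in the cluster led by Pdyn. Its level there was 64.1, 32.4 and 24.1 CPM in PHD1-/- and 40.1, 27.0 and 15.6 CPM in PHD1+/+ libraries. The next cluster, led by Dlk1, Adamts2 and Crhbp, had 9.86 CPM over all libraries and lay lower in 6 of 6 libraries. Oligodendrocyte precursors, the dividing glia that give rise to oligodendrocytes, had Sstr1 at 8.11 to 21.7 CPM in PHD1-/- and 9.11 to 15.4 CPM in PHD1+/+ libraries, against at most 1.08 CPM in oligodendrocytes of any library.

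Galr1 (ENSMUSG00000024553, chromosome 18, 82392380 to 82406777 on the minus strand) was spread over both neuron types. It was 12.7, 5.14 and 4.46 CPM in excitatory neurons of PHD1-/- replicates 1, 2 and 3, against 6.27, 6.89 and 5.41 CPM in PHD1+/+ replicates 1, 2 and 3, and the excitatory level was the higher in 5 of 6 libraries. The leading clusters, led by Lmo3, Tac1 and Unc5cl (35.2 CPM over all libraries), Prex2 (32.9 CPM), Met (32.0 CPM) and Qrfpr with Plch1 (30.5 CPM), did not differ beyond the spread of the libraries. Tac1 encodes the precursor of substance P. Of the 517 nuclei in the galanin cluster, 0 had a Galr1 UMI, which allows a share of up to 0.580% and covers counting error only.

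Patterns over the 39 neuron clusters with at least 50 nuclei were compared with those of 13929 genes by Pearson's r of log2(CPM + 1), as a description of clusters that share libraries and depth. Closest to Npy were Clptm1 (r = 0.632), Bace1 and Ndn. Npy1r was closest to Lemd1 (0.804), Cbln2 and Elfn1, and Npy2r to Rmi2 (0.625), Ptger2 and Gm20646. Npy5r was closest to Gm49907 (0.717), and Npy1r (0.709) was among its 3 closest genes. Sst was closest to Thbs1 (0.794), Hdac7 and Dnah7a, and Gal to Sstr2 (0.574), Tmem50a and Orai2. Sstr1 was closest to Npbwr1 (0.700), a receptor for neuropeptides B and W, then Hrh3 and 4930467D21Rik. Sstr2 was closest to Nsa2 (0.704), Grina and Olfr372, and Galr1 to Mga (0.679), Tsix and Baiap3. The 9 genes thus appear among the closest of each other in 2 cases, Npy1r for Npy5r and Sstr2 for Gal.

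Co-detection was counted in nuclei thinned to 1000 UMIs, so that deep nuclei do not hold more pairs, and set against the number that the separate shares of each library give. A pair was described where at least 5 nuclei were expected, which left 9 of 36 pairs in excitatory and 6 of 36 in inhibitory neurons. Sstr2 and Gal met in 53 inhibitory nuclei, against 9.18 expected, a ratio of 5.77 (95% Poisson interval 4.32 to 7.55, counting error only), with 4.96 in PHD1-/- and 6.21 in PHD1+/+ libraries, and above 1 in 6 of 6 libraries. With the expected number summed over clusters the ratio was 1.21, so the excess was far smaller within clusters than over the whole type. Without thinning it was 3.65.

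Npy1r and Npy5r met in 24 excitatory nuclei against 8.20 expected, a ratio of 2.93 (1.87 to 4.35), with 2.19 in PHD1-/- and 3.51 in PHD1+/+ libraries and above 1 in 5 of 6 libraries. Summed over clusters it was 1.66. Sst met Galr1 in 28 excitatory nuclei against 15.2 expected (1.85, interval 1.23 to 2.67), Npy1r in 112 against 73.5 (1.52, interval 1.25 to 1.83) and Npy5r in 79 against 54.1 (1.46, interval 1.16 to 1.82), each above 1 in 6 of 6 libraries. By cluster these ratios were 0.926, 1.12 and 1.15. The interval covered 1 for the other 10 described pairs, among them Npy with Gal (0.865) and Npy with Sst (0.727) in inhibitory neurons.

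Rarer pairs reached the minimum only without thinning, where depth enters. In inhibitory neurons at full depth, Sstr1 met Gal in 54 nuclei against 12.2 expected, Sstr1 met Sstr2 in 50 against 15.5, Npy met Galr1 in 60 against 25.2 and Npy met Npy2r in 71 against 33.5. These are picked from the 32 of 36 inhibitory pairs that reached the minimum there, of which 5 lay above 1 in all 6 libraries. Expected numbers by cluster were not computed at full depth, so an excess within clusters was not tested.

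**Figure D3:**
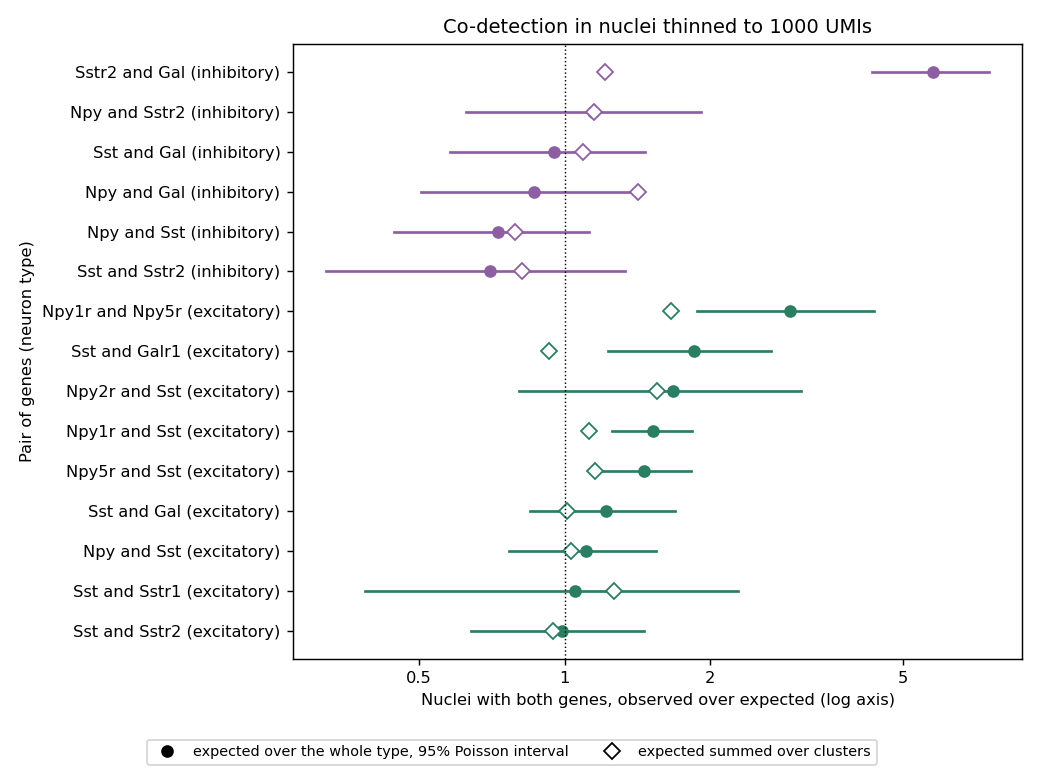
Nuclei with UMIs of both genes of a pair, observed over expected on a log axis, for the 15 described pairs in nuclei thinned to 1000 UMIs. Filled circles take the expected number over the whole neuron type with 95% Poisson intervals, open diamonds sum it over clusters, and inhibitory pairs stand above excitatory ones. Sstr2 with Gal lies at 5.77 and at 1.21 by cluster, and Npy1r with Npy5r at 2.93 and 1.66.

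The comparison of the design asks what the loss of PHD1 goes with in these genes. Without the replicate number as a term, edgeR's quasi-likelihood test with Benjamini-Hochberg adjustment called 0 of 17665 genes in all neurons (0% of those tested), 0 of 15828 in excitatory neurons (0%) and 0 of 15658 in inhibitory neurons (0%), so none of the 9. At an unadjusted p under 0.05 there were 91, 68 and 77 genes, and DESeq2 also called 0 in each. Same-numbered libraries deviated together, so the fit with the replicate number as a term is given beside it. That fit called 32 genes in all neurons (0.181% of those tested, with 0.159% called lower), 22 in excitatory neurons (0.139%) and 106 in inhibitory neurons (0.677%, with 0.651% of all tested genes called lower).

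Npy was lower in PHD1-/- inhibitory neurons within every same-numbered pair, by the levels of 73.2, 62.9 and 36.6 CPM in PHD1-/- against 99.1, 102 and 57.7 CPM in PHD1+/+ libraries given above. The groups overlapped, since PHD1-/- replicates 1 and 2 lay above PHD1+/+ replicate 3. The log2 fold change was -0.59 (SE 0.31, edgeR adjusted p = 1.00) without the replicate term and -0.61 (SE 0.08, edgeR adjusted p = 0.00285) with it, and it passed with DESeq2 under the same term (-0.60, adjusted p = 0.00222). In all neurons, Npy was 44.5, 37.9 and 22.9 CPM in PHD1-/- against 62.9, 55.5 and 34.7 CPM in PHD1+/+ libraries, with a log2 fold change of -0.53 (SE 0.30, edgeR adjusted p = 1.00) and, with the replicate term, -0.54 (SE 0.07, edgeR adjusted p = 0.0427). Without the pair of replicate 3 that call was lost (adjusted p = 0.295), while the call in inhibitory neurons was kept whichever pair was left out (largest adjusted p = 0.0130, edgeR). The fits of 2 pairs, here and below, were added after seeing the data. In inhibitory neurons they called 360 of 15835 genes without the pair of replicate 1, 226 of 15103 without that of replicate 2 and 69 of 15556 without that of replicate 3. With all pairs the count was 106 of 15658, so a call kept in such a fit is weak evidence of stability. Both the share of Npy neurons and the level within them enter the summed Npy levels.

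Npy was tested in the clusters richest in Npy and in Gal, and passed in neither with all 6 libraries. In the cluster led by Qrfpr, Plch1 and Ndnf the log2 fold change was -0.46 (SE 0.31, edgeR adjusted p = 1.00), and -0.48 (SE 0.14, edgeR adjusted p = 0.838) with the replicate term, and both fits called 0 of the 3424 genes tested in that cluster (0%, with 52 at an unadjusted p under 0.05 in the first). Of the 9 clusters above 2 times the oligodendrocyte level, 3 were lower in PHD1-/- in all 3 pairs, those led by Qrfpr with Plch1, by Chrm3 and by Met, and the other 6 in 2 of 3 pairs, so that 21 of 27 pairs were lower. In inhibitory neurons 16.6% of all tested genes were lower in all 3 pairs, which is the level against which such a count has to be read. The cluster led by Qrfpr and Plch1 made up 2.36%, 1.76% and 2.50% of inhibitory neurons in PHD1-/- replicates 1, 2 and 3, against 2.61%, 2.80% and 2.58% in PHD1+/+ replicates 1, 2 and 3, from 23 to 35 nuclei a library. The exact two-sided permutation p was 0.10, the smallest that 3 libraries against 3 can give, and 0.30 adjusted over the richest clusters of the 3 peptides. In oligodendrocytes, Npy was lower in PHD1-/- in the pair of replicate 1 and higher in that of replicate 2.

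**Figure D4:**
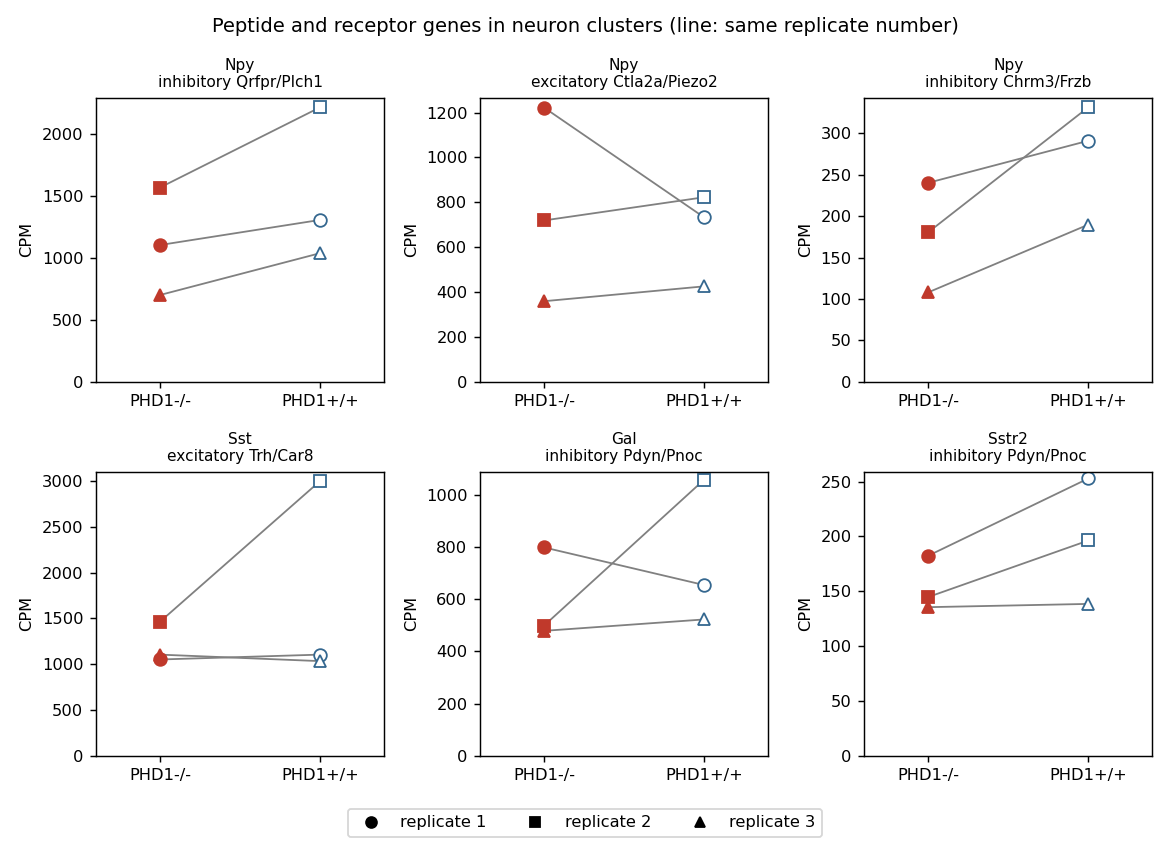
Level in CPM, on linear axes from 0, of Npy in the 3 neuron clusters richest in it, and of Sst, Gal and Sstr2 in the cluster richest in each. Each symbol is 1 library, PHD1-/- on the left and PHD1+/+ on the right, and lines join libraries with the same replicate number. Npy is lower at the PHD1-/- end of every line in the Qrfpr and Chrm3 clusters but not for replicate 1 in the Ctla2a cluster, while the Sst difference rests on the pair of replicate 2 and the lines of Gal cross.

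Sst was lower in PHD1-/- in all 3 pairs as well, but the size of the difference rested on PHD1+/+ replicate 2. In all neurons it was 166, 149 and 132 CPM in PHD1-/- against 207, 302 and 147 CPM in PHD1+/+ libraries (log2 fold change -0.55, SE 0.26, and with the replicate term -0.50, SE 0.13, edgeR adjusted p = 0.254, but 0.0308 without the pair of replicate 1). In excitatory neurons, where Sst was higher than in inhibitory neurons, the change with the replicate term was -0.44 (SE 0.11, edgeR adjusted p = 0.230). That adjusted p was 3.07e-06 without the pair of replicate 1 and 0.000817 without that of replicate 3 (edgeR). Without the replicate term the change was -0.49 (SE 0.28, edgeR adjusted p = 1.00). The call on Sst that passed with the replicate term was in inhibitory neurons (-0.59, SE 0.11, edgeR adjusted p = 0.0195). It was lost without the pair of replicate 2 (adjusted p = 0.246, edgeR). In that pair, Sst was 44.3 CPM in PHD1-/- and 89.8 CPM in PHD1+/+ inhibitory neurons, while oligodendrocytes had 83.5 CPM in PHD1-/- and 39.5 CPM in PHD1+/+. The part of free RNA in this call was not tested. Of 11 Sst clusters, 3 were lower in all 3 pairs and 25 of 33 pairs were lower, where 16.7% of all genes tested in excitatory neurons were lower in all 3.

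Gal did not pass in any neuron type. In all neurons it was 36.5, 21.5 and 17.9 CPM in PHD1-/- against 48.6, 35.5 and 19.9 CPM in PHD1+/+ libraries, lower in all 3 pairs, as for 17.7% of all genes tested there (log2 fold change -0.45, SE 0.37, and with the replicate term -0.44, SE 0.11, edgeR adjusted p = 0.234). In its own cluster the change was -0.34 (SE 0.29, edgeR adjusted p = 1.00), with the pair of replicate 1 higher in PHD1-/-. Of 7 clusters above 2 times the oligodendrocyte level of Gal, 1 was lower in all 3 pairs, and 11 of 21 pairs were lower. Npy in that cluster was 9.86, 19.4 and 27.8 CPM in PHD1-/- and 60.2, 109.9 and 20.1 CPM in PHD1+/+ libraries, and the groups overlapped (-1.62, SE 0.57, edgeR adjusted p = 1.00, with the replicate term 0.208). Without the pair of replicate 3, Npy there passed with that term (-2.49, edgeR adjusted p = 4.2e-05). That pair was the only one with Npy higher in PHD1-/-, and the fit was added after seeing the data. In that cluster 0 of 7231 genes tested were called without the replicate term (0%, with 70 at an unadjusted p under 0.05) and 1 with it (0.0138%).

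None of the receptors passed with or without the replicate term. Npy1r in inhibitory neurons had 2.57, 4.59 and 4.36 CPM in PHD1-/- replicates 1, 2 and 3, against 5.88, 7.04 and 6.60 CPM in PHD1+/+ replicates 1, 2 and 3. The groups did not overlap, as for 2.4% of all genes tested there. These levels rested on 8, 52 and 39 UMIs in PHD1-/- and 22, 67 and 54 UMIs in PHD1+/+ libraries. Npy1r in oligodendrocytes was 2.52 CPM over all libraries and at most 3.70 CPM in any, so PHD1-/- replicate 1 lay near that level. The log2 fold change was -0.71 (SE 0.28, edgeR adjusted p = 1.00, and 0.251 with the replicate term). In excitatory neurons, where its level was higher, the Npy1r change was -0.09 (SE 0.21, edgeR adjusted p = 1.00). Sstr2 in inhibitory neurons was lower in all 3 pairs (-0.23, SE 0.40, and -0.24, SE 0.12, with the replicate term), and Galr1 higher in all 3 (0.31, SE 0.36), where 14.9% of all genes were higher in all 3. Over the 9 genes the median log2 fold change was -0.40 in inhibitory neurons, -0.02 in excitatory neurons and -0.14 in all neurons, against -0.01 over all genes in each of the 3. The 9 genes were selected on levels by genotype already seen in these data. Their medians are therefore a description and no support for a change of the set.

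**Figure D5:**
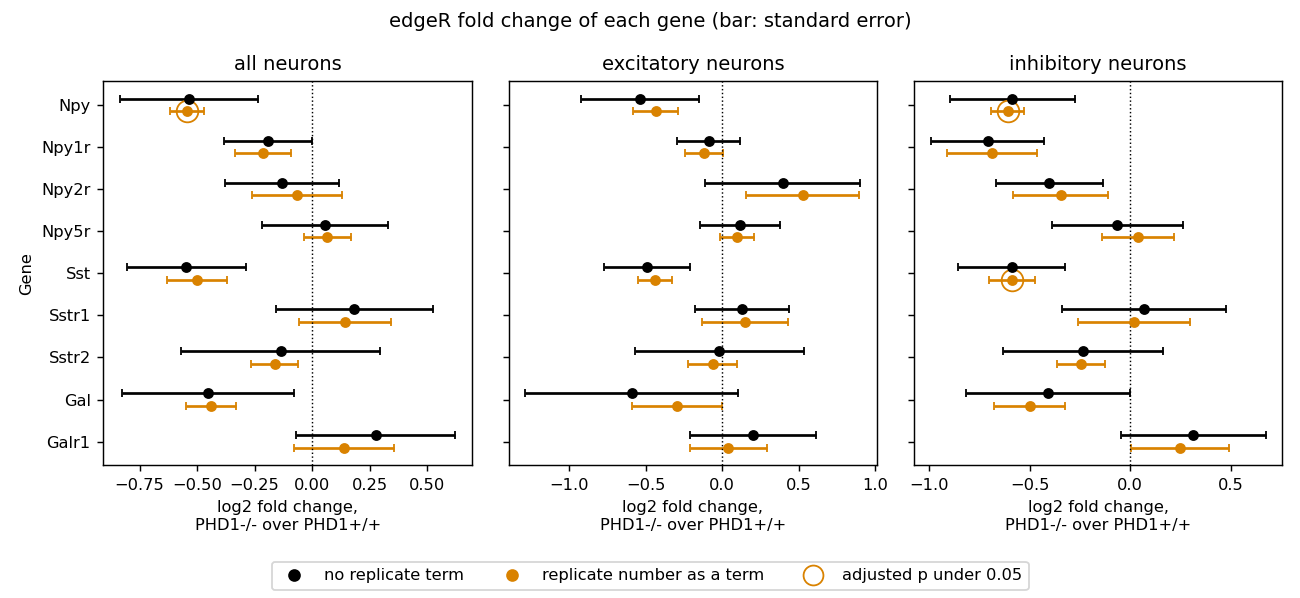
Log2 fold change of each gene, PHD1-/- over PHD1+/+, with standard errors as bars, in all, excitatory and inhibitory neurons from edgeR. Black points come from the fit without and orange points from the fit with the replicate number as a term, and a ring marks an adjusted p under 0.05. Rings stand at Npy in all neurons (-0.54) and in inhibitory neurons (-0.61) and at Sst in inhibitory neurons (-0.59).

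Shares of nuclei with a UMI were compared in nuclei thinned to 1000 UMIs, with p adjusted over 9 genes and 2 neuron types. The smallest exact p that 3 libraries against 3 can give is 0.10, so no share could pass the threshold, and the tests say nothing about whether the shares differ. Npy was found in 5.24% ± 1.11 of inhibitory nuclei in PHD1-/- and 6.80% ± 1.99 in PHD1+/+ libraries (SD over 3 each, exact permutation p = 0.30, adjusted 0.90), with 2.19% ± 0.56 of oligodendrocytes in PHD1-/- and 2.79% ± 2.68 in PHD1+/+ libraries. Sst was found in 20.9% ± 1.09 of excitatory nuclei in PHD1-/- and 25.7% ± 4.68 in PHD1+/+ libraries (SD over 3 each, exact permutation p = 0.20, adjusted 0.90). Among oligodendrocytes its share was 7.83% ± 1.82 in PHD1-/- and 9.69% ± 6.77 in PHD1+/+ libraries. The shares of Npy in inhibitory and of Sst in excitatory nuclei were lower in PHD1-/- within every same-numbered pair, and so were 6 of the 18 compared, these included. Unthinned, 2 of the 18 were lower in all 3 pairs, and Sst in excitatory nuclei was lower in 2 of 3. Thinned to 500 UMIs, the groups did not overlap for Npy in inhibitory nuclei, with 3.08%, 3.06% and 2.00% in PHD1-/- replicates 1, 2 and 3, against 4.55%, 4.08% and 4.06% in PHD1+/+ replicates 1, 2 and 3. Sst did not overlap at that depth either, in excitatory or in inhibitory nuclei, lower in PHD1-/- in both, and these 3 of 18 had the smallest possible exact permutation p of 0.10, not adjusted. Thinned to 1000 UMIs, 1 of 18 had that p, and unthinned 0 of 18. Shares of genes outside the 9 were not computed, so there is no level against which to read these counts. At 1000 UMIs the smallest p was that of Npy2r in excitatory nuclei, 0.394% ± 0.0645 in PHD1-/- and 0.224% ± 0.0326 in PHD1+/+ libraries (SD over 3 each, exact permutation p = 0.10, adjusted 0.90). Median depth before thinning was 2291 to 7679.5 UMIs a library for these neurons. Too shallow to be thinned were 1202 of 1833 oligodendrocytes in PHD1-/- replicate 1 and 1597 of 2448 in PHD1+/+ replicate 1.

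Outside the 9 genes, family relatives and genes of peptide processing, degradation and receptor coupling gave no call in any neuron type in either fit. Of 13 peptide processing and secretion genes, 11 had lower values in PHD1-/- in all neurons and 11 in inhibitory neurons (median log2 fold change -0.09 and -0.12, smallest adjusted p with the replicate term 0.0504 in inhibitory neurons, edgeR). The most abundant were Cadps, which primes dense-core vesicles, with 999 ± 255 CPM in PHD1-/- and 965 ± 266 CPM in PHD1+/+ neurons, and Pcsk1n, which encodes an inhibitor of prohormone convertase, with 471 ± 178 CPM in PHD1-/- and 560.1 ± 232 CPM in PHD1+/+ neurons (SD, n = 3 each). Of 5 peptide-degrading enzymes 4 were tested, and 3 had lower values in all neurons. Of 14 receptor-coupling genes 13 were tested in all neurons, and 9 had lower values there. Of 12 relatives of the 3 families, 2 had enough counts to be tested, Spx (413 UMIs in neurons) and Sstr3 (240 UMIs).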

How the data were processed

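Gene expression was measured in single nuclei. The deposited values are raw counts of UMIs for each gene in each barcode. Per the file headers, Cell Ranger 5.0.1 made them. Version 5.0.2 of that tool, with Scanpy 1.8.1 and mm10, stands in the submitters' processing notes. Use of intron reads or of strand in counting: not given in the sources used here. The 4 antibody tag features held 0 UMIs. Columns left unmapped to a sample numbered 0.

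Barcodes were kept from 500 UMIs and 300 genes upwards, if under 5% of UMIs were mitochondrial. In each library the barcodes with the highest Scrublet scores, 0.8% per 1000 barcodes, were removed as doublets, because the automatic threshold failed in replicate 1. This rule, and the scaling of genes within each library before clustering, were set after seeing the data. Clusters were made in scanpy 1.11.5 (Leiden, resolution 1, and 1.5 among neurons, 2000 and 1500 variable genes, 30 components, 15 neighbours) without the 9 genes, and named from fixed marker lists. A neuron cluster was called excitatory or inhibitory where the transmitter genes of one kind were at least 2 times those of the other.

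UMIs were summed per library and tested over all genes with edgeR 4.0.16 (R 4.3.3, TMM factors, filterByExpr, quasi-likelihood test, Benjamini-Hochberg, threshold 0.05), with DESeq2 1.42.0 as an alternative. The script was tested on simulated data. Same-numbered libraries of the 2 groups deviated together from their group means, with correlations of 0.809, 0.640 and 0.646, and each library correlated best with its own number. Across numbers, PHD1-/- replicate 2 with PHD1+/+ replicate 3 had 0.534, and PHD1-/- replicate 3 with PHD1+/+ replicate 2 had 0.526. Replicate 1, which stood apart in barcode list and depth, correlated negatively with the other numbers. The 3 deviations within a group sum to 0 for each gene, so correlations across numbers depend on those within numbers. Their signs are therefore no separate evidence for the pairing. Littermates and a shared batch cannot be told apart from these values. The numbers were taken to pair the libraries on these same data, a reading that the labels, which speak of littermate pairs, allow but do not state. The fit with the number as a term is given where it changes a call or a count. SE is the log2 fold change over the root of the F statistic.

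The 9 genes and the gene lists were chosen with earlier results of these data known, so their tests are no independent support. The text names all 9 genes, the 3 genes with the most similar pattern over clusters for each (1 of them is not reported here), and up to 2 of the most abundant genes of a list. Other clusters and genes are named as the places where the 9 genes lay. Alternatives were DESeq2, no filter, the replicate term, leaving out libraries or pairs, replicates 2 and 3 only, at least 1000 UMIs, doublets kept, the 9 genes allowed in the clustering, no scaling within libraries, and other depths of thinning. Intervals of shares are exact binomial and those of co-detection exact Poisson, and they and the limits for 0 (3 counts) cover counting error only.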

Additional observations from a re-analysis of the deposited data

How the results depend on the processing

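The number of genes called was the result that moved most. With the replicate block, edgeR called 32 genes in all neurons, 22 in excitatory neurons, 106 in inhibitory neurons, 2 in the cluster richest in Sst and 1 in that richest in Gal, against 0 in each without it. With the block in DESeq2 the counts were 33 in all nuclei, 71 in all neurons, 17 in excitatory and 37 in inhibitory neurons. With the block and without the pair of replicate 1 they were 232 in all neurons, 249 in excitatory neurons, 360 in inhibitory neurons and 3 in the Sst cluster. Without the pair of replicate 2 they were 409 in all nuclei, 276 in all neurons, 234 in excitatory neurons, 226 in inhibitory neurons and 5 in the Gal cluster. Without the pair of replicate 3 they were 63 in all nuclei, 3 in all neurons, 46 in excitatory neurons, 69 in inhibitory neurons and 4 in the Gal cluster. These fits of 2 pairs and the DESeq2 fit with the block were added after seeing the data. In replicates 2 and 3 only, without the block, 1 gene was called in excitatory neurons, 1 in the Sst cluster and 6 in the Gal cluster, and with no filter 1 in the Sst cluster. Leaving out each library in turn gave 0 calls in all 7 comparisons. The cause was not tested.

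For the members, signs turned mainly for receptors. In replicates 2 and 3 only, the log2 fold change was 0.0828 for Npy2r and -0.15 for Galr1 in all neurons, 0.36 for Gal and -0.35 for Galr1 in excitatory neurons, and 0.22 for Npy5r and -0.0903 for Sstr1 in inhibitory neurons. With the replicate block it was 0.0393 for Npy5r in inhibitory neurons. Leaving out 1 library, the log2 fold change in all neurons ran between -0.247 and 0.0644 for Npy2r, -0.16 and 0.30 for Npy5r, -0.13 and 0.37 for Sstr1, -0.62 and 0.26 for Sstr2, and -0.16 and 0.51 for Galr1. In excitatory neurons it ran between -0.246 and 0.0213 for Npy1r, -0.0389 and 0.793 for Npy2r, -0.12 and 0.29 for Npy5r, -0.67 and 0.46 for Sstr2, -1.02 and 0.42 for Gal, and -0.34 and 0.47 for Galr1. In inhibitory neurons it ran between -0.25 and 0.30 for Npy5r, -0.28 and 0.32 for Sstr1, and -0.64 and 0.13 for Sstr2. Npy stayed lower in PHD1-/- in all 3 neuron groups, between -0.80 and -0.06.

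Shares are given as PHD1-/- minus PHD1+/+ in percentage points. In replicates 2 and 3 only, the excitatory difference was 0.0266 for Npy, -0.0556 for Sstr1 and -0.0511 for Galr1. Unthinned, it was 1.15 for Npy5r and 0.0627 for Sstr2 in excitatory neurons, and -0.342 for Npy2r, 0.898 for Npy5r, 0.247 for Sstr1 and 0.25 for Galr1 in inhibitory neurons. Thinned to 500 UMIs it was 0.146 for Npy5r and -0.0134 for Sstr1 in excitatory neurons and 0.153 for Sstr1 in inhibitory neurons. With doublets kept it was 0.593 for Npy5r and 0.367 for Sstr2 in excitatory neurons and 0.0875 for Sstr1 in inhibitory neurons. Leaving out 1 library, excitatory differences ran between -0.757 and 0.273 for Npy, -0.66 and 0.242 for Npy1r, -0.546 and 0.115 for Npy5r, -0.011 and 0.122 for Sstr1, -0.326 and 0.184 for Sstr2, -0.964 and 0.149 for Gal, and -0.118 and 0.642 for Galr1. Inhibitory ones ran between -0.0831 and 0.118 for Npy2r, -0.129 and 0.0602 for Npy5r, and -0.211 and 0.108 for Sstr1.

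The contrast of neuron types kept its sign for every gene under each alternative run. Receptor levels of a few CPM and clusters of under 100 nuclei limit what these libraries can show.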
